A study of Mus musculus with 2 samples.

Results

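Foxd3, Phox2a, Ret, Erbb3, Ngfr, Ntrk2 and Ntrk3 are 7 genes of the peripheral nervous system and of the neural crest from which much of it forms. They were taken by symbol from the GENCODE M21 annotation of the mouse mm10 genome, in which all 7 were found, and they are 7 of 21728 protein-coding genes analysed here, those of chromosomes 1 to 19 and of X. The selection rule lists genes by symbol and uses no measured value, but the 7 genes were chosen with earlier results of these data known. Their chromatin was read from DNase-seq of mouse embryos, an assay in which DNase I cuts DNA that is not wrapped in nucleosomes and the cut ends are sequenced. The labels describe 1 group, embryos of 11 days of the B6NCrl strain with both sexes pooled, with no treatment and no engineered allele. The group has 2 biological replicates with separate biosample entries and a shared donor entry, so the spread between them may in part be technical. With 1 stage and 1 tissue, the comparisons are between the replicates, among the 7 genes, and between these genes and all others.

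Neural crest cells leave the dorsal neural tube and form sensory, sympathetic, parasympathetic and enteric neurons together with Schwann cells and satellite glia. Their path is set by transcription factors and by growth factors that bind receptors on the cell surface. Neurotrophins act through receptors that include Ntrk2, Ntrk3 and Ngfr, ligands of the GDNF family act through Ret with a Gfra co-receptor, and neuregulins act through Erbb3 paired with Erbb2.

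The deposited lists held 204697 peaks in replicate 1 and 231103 in replicate 2 with a width of 150 bp, and 179603 and 197152 hotspots, which are broader regions of enriched cutting. A peak carries a score between 1 and 150 whose construction the sources used here do not state, so scores were read as ranks and their ratios have no meaning. A hotspot carries the −log10 of a q value, with a ceiling of 100. Read depth is unknown. In a whole embryo, a site open in few cells and a site weakly open in many cannot be told apart. A peak was called shared when at least 1 bp of it lay in a peak of the second list. Distal peaks lay more than 1000 bp from the start site of every transcript of every protein-coding gene, and the territory of a gene comprised the bases nearer to its 5'-most start site than to that of any other such gene. Positions below are distances of a peak's centre from that start site, negative upstream and positive downstream in the direction of transcription. Assignment to a territory is by position and does not show which gene a site acts on.

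All 7 genes had a peak within 500 bp of an annotated start site in both replicates, and 70.3% of all protein-coding genes did. At the 5'-most start site alone, 6 of the 7 had such a peak, against 65.2% of all genes, and Ntrk3 was the gene without one. Shared distal peaks reached 19.7 per 100 kb of territory at Ngfr, 17.2 at Foxd3 and 13.2 at Erbb3. They were sparser at Phox2a with 8.02, Ret with 7.13 and Ntrk2 with 6.77 per 100 kb, and sparsest at Ntrk3 with 3.29. The genes also differed in where their peaks stood. Foxd3 had a dense tract around its single exon, Phox2a had most of its distal peaks inside neighbouring genes, and Ntrk2 and Ntrk3 had most of theirs more than 100 kb from the 5'-most start site.

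**Figure D1:**
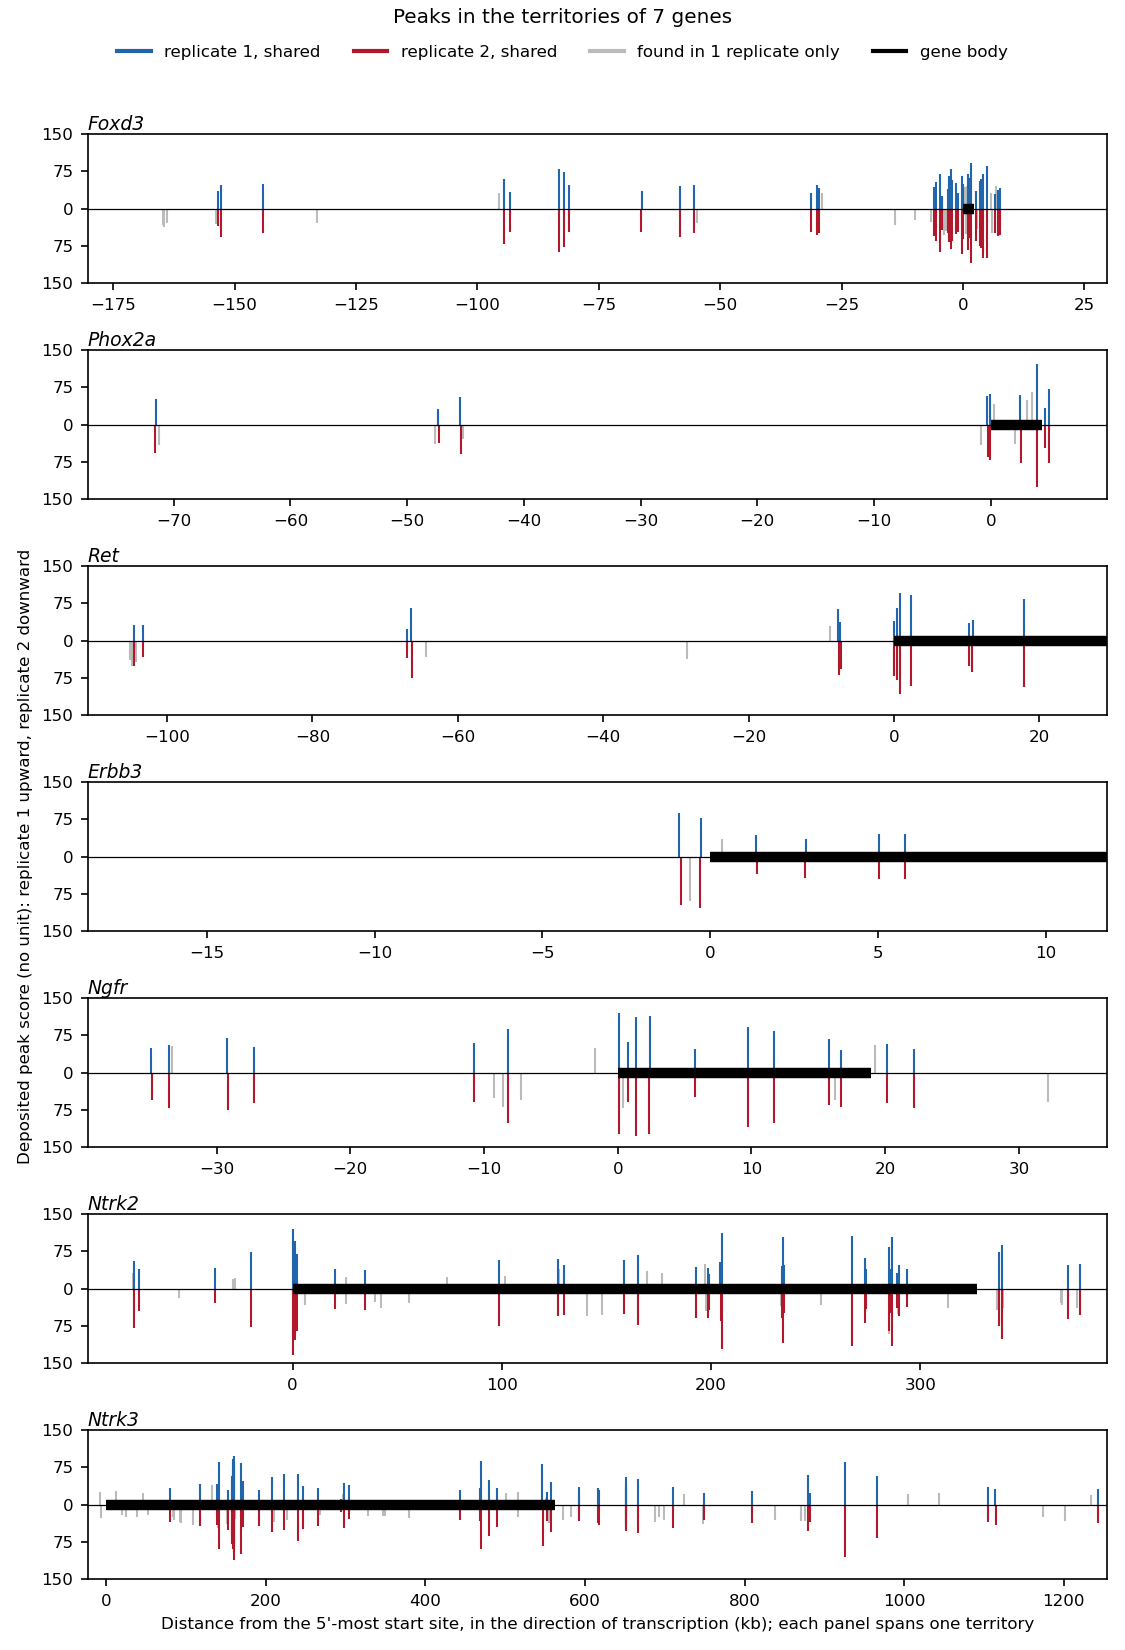
Each panel spans the territory of 1 gene, with distance from the 5'-most start site in kb on the horizontal axis and the deposited peak score, which has no unit, on the vertical axis. Lines upward are replicate 1 peaks and lines downward replicate 2 peaks, coloured where shared and grey where found in 1 replicate only, and the black bar is the gene body as far as it lies in the territory. The crowded tract at Foxd3 held 25 shared peaks, and the cluster within the gene body of Ntrk3 stood at its principal start site, about 160 kb from the 5'-most one.

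Foxd3 encodes a forkhead transcription factor that marks premigratory crest and keeps crest cells multipotent. The gene is a single exon on the plus strand of chromosome 4, from 99656299 to 99658622, with a territory of 209.88 kb. Replicate 1 had 45 peaks there and replicate 2 had 52, and 39 of the replicate 1 peaks (86.7%) were shared. The distal density was 19.1 per 100 kb in replicate 1 and 23.3 in replicate 2, a mean of 21.2 ± 3.03 (SD, n = 2).

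A run of 25 shared peaks, with no gap over 5 kb, extended from −5.97 kb to 7.57 kb, a span of 13.5 kb. The same 25 lay within 10 kb of the start site, where the median over all protein-coding genes was 3. Only 9 genes, Foxd3 among them, had as many or more. The 2 replicates drew this tract differently as hotspots. In replicate 2 a single hotspot of 7180 bp and another of 4307 bp spanned stretches that replicate 1 broke into several shorter ones. Hotspots covered 80.7% of the Foxd3 gene body in replicate 1 and 99.6% in replicate 2.

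The peak at the Foxd3 start site was not the strongest of the tract. It scored 50 in replicate 1 and 62 in replicate 2, while the peak at −0.248 kb scored 65 and 91. The best-ranked distal peak, at 1.69 kb in the exon and overlapping a UTR, scored 92 and 109. The next, at 4.91 kb beyond the gene, scored 87 and 100 and stood in the top 14.1% and 11.5% of the 2 lists. The third, at −83.2 kb, scored 79 and 88 and overlapped an exon of the long noncoding RNA gene Gm12690. It led a group of 3 shared peaks between −83.2 and −81.1 kb. Of the 36 shared distal peaks, 25 were intergenic upstream, 8 intergenic downstream and 3 in the exon. Intergenic here and below means outside every protein-coding gene, so peaks in noncoding genes such as Gm12690 count as intergenic. Base composition varied among the peaks of the tract. The lowest GC content was 38.7%, in the peak at −4.37 kb, and the highest 76.7%, in the one at 1.09 kb, which held 22 CpG dinucleotides.

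The sequences below are the RefSeq promoter of Foxd3, bases before the start site at chr4:99656049-99656298 of GRCm38.p6 on the plus strand, and the peak at 4.91 kb, chr4:99661136-99661285 of mm10 on the plus strand. Both lie inside the tract. In each promoter printed, capitals mark matches to the letters of the CREB, SP, ETS, AP-2, SOX, homeodomain, E-box and GATA motifs, and in each distal peak those of the SOX, AP-2, PHOX2, homeodomain, E-box, GATA and TCF motifs, on either strand.
Foxd3 promoter: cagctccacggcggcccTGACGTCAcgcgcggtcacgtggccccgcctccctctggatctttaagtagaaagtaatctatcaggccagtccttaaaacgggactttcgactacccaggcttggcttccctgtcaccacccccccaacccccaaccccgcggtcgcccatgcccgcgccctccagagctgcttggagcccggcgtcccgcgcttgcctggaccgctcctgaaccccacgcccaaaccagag
Foxd3 peak at 4.91 kb: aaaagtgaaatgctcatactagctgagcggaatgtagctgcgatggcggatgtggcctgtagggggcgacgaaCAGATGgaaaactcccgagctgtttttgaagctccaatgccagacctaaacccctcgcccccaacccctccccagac
The promoter held the cyclic AMP response element TGACGTCA, found in 1.55% of the 32851 promoters of the table. The promoter sequence as a whole overlapped 2 shared peaks. Its GC content was 65.6%. The downstream peak held 1 capitalised match, CAGATG, an E-box form bound by neurogenin-type factors that 18.7% of all shared distal peaks also held.

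Phox2a encodes a homeodomain factor needed for noradrenergic and other autonomic neurons. The gene lies on the plus strand of chromosome 7, from 101818313 to 101822726, in a territory of 87.3 kb between Clpb and Inppl1. Replicate 1 had 13 peaks there and replicate 2 had 14, of which 10 replicate 1 peaks were shared. Distal peaks numbered 9.16 and 10.3 per 100 kb in the 2 replicates, 9.74 ± 0.81 (SD, n = 2).

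The strongest peak of the Phox2a territory stood at the end of the gene and not at its start. It lay 3998 bp from the start site in exon 3, overlapping the UTR, and scored 122 in replicate 1 and 126 in replicate 2, in the top 4.65% and 4.62% of the lists. The peak at the start site scored 62 and 71, and a neighbour at −0.342 kb scored 57 and 66. The 3' peak belonged to the widest stretch covered by hotspots of both replicates, 1861 bp from 101821223 to 101823083 with 2 shared peaks. That stretch was wider than the 859 bp one at the start site. A further peak at 4998 bp, in exon 29 of Inppl1, scored 72 and 77. Of the 7 shared distal peaks, 6 lay inside other genes and 1 in Phox2a itself. No shared peak stood between −45.4 and −0.342 kb.

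The peak at −45.4 kb, in intron 7 of Clpb, scored 55 and 60 and stood in a replicate 1 hotspot at the ceiling. It was the best-ranked distal peak of Phox2a that overlapped no exon, and it is printed for that reason. It was also the only 1 of the 147 shared distal peaks of the 7 genes with a match to the PHOX2 pattern, TAAT and ATTA separated by 3 bases. Of all 125447 shared distal peaks, 0.189% held that pattern. The peak lies at chr7:101772796-101772945 of mm10 and is printed on the plus strand. The promoter of Phox2a, chr7:101818063-101818312 on the plus strand of GRCm38.p6, is shown with it.
Phox2a peak at −45.4 kb: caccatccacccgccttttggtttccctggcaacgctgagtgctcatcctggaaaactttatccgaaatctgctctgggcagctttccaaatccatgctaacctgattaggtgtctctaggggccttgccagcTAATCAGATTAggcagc
Phox2a promoter: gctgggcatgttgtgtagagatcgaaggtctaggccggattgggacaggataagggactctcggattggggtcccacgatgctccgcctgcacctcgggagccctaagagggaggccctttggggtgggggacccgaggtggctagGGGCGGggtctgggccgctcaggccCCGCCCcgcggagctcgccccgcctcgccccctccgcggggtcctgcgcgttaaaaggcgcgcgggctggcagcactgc
The match in the peak began at base 134. The promoter, with 70.4% GC, held 2 matches to the SP letters GGGCGG, which occurred in 32.7% of promoters of the table. A match describes letters and does not show binding.

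Ret encodes the receptor tyrosine kinase for GDNF family ligands and is needed for enteric and sympathetic neurons. The gene lies on the minus strand of chromosome 6, from 118151745 to 118197718. Its territory of 140.17 kb took in 63.7% of the gene body, and the rest was nearer to the start site of another gene. Replicate 1 had 14 peaks in the territory and replicate 2 had 19. Of the replicate 1 peaks 13 (92.9%) were shared, and of the replicate 2 peaks 13 (68.4%). Per 100 kb there were 7.85 and 11.4 distal peaks, 9.63 ± 2.52 (SD, n = 2).

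Both annotated start sites of Ret had peaks. The nearest peak to the start of the principal transcript, Ret-201, scored 96 in replicate 1 and 107 in replicate 2. The start of Ret-202, 585 bp upstream, lay in a peak that scored 39 and 72. Within the body, shared peaks clustered in intron 1. The best-ranked distal peak, at 2.39 kb, scored 92 in both replicates, and weaker peaks at 10.3 kb and 10.8 kb scored 35 and 41 in replicate 1 and 51 and 64 in replicate 2. Both of the weaker peaks held the SOX letters ACAAAG, which 14.5% of all shared distal peaks held. A peak in intron 4 at 17.9 kb scored 83 and 94. Upstream, peaks at −7.65 and −7.37 kb scored 63 and 37 in replicate 1 and 70 and 58 in replicate 2, and a peak at −66.4 kb scored 65 and 76. No shared peak lay between −66.4 and −7.65 kb.

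The intron 1 peak at 2.39 kb, chr6:118195256-118195405 of mm10, is printed on the minus strand as the best-ranked distal peak of Ret.
Ret peak at 2.39 kb: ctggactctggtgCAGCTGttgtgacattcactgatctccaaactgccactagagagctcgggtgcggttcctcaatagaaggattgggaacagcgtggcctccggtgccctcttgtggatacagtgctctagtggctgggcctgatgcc
It had 56.7% GC and 1 capitalised match, the E-box CAGCTG. That E-box occurred in 5 of the 10 shared distal peaks of Ret and in 18.5% of all shared distal peaks.

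Erbb3 encodes the neuregulin receptor on which migrating glial precursors and Schwann cells depend. The gene lies on the minus strand of chromosome 10, from 128567523 to 128589652. Its territory of 30.4 kb was the shortest of the 7 and took in 53.5% of the gene body. Each replicate had 7 peaks there, of which 6 were shared. The distal density was 13.2 per 100 kb in both replicates, from 4 distal peaks in each.

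The accessible sites of Erbb3 split into a strong pair at the promoter and weak sites in the introns. The promoter pair comprised peaks at −0.259 kb, with scores of 78 and 104, and at −0.919 kb, with 87 and 97. Both lay in a stretch of 1682 bp that was a hotspot at the ceiling in both replicates. Replicate 2 had a further peak between them that scored 89 and met no replicate 1 peak, although it overlapped a replicate 1 hotspot. The 4 shared distal peaks, in introns 1, 3 and 4, scored between 35 and 46 in replicate 1 and between 34 and 45 in replicate 2. No shared distal peak of Erbb3 was among the better-scoring 50% of both lists, so its distal density with those peaks alone was 0. The best-ranked of the 4, at 5.82 kb in intron 4, chr10:128583756-128583905 of mm10, is printed on the minus strand.
Erbb3 peak at 5.82 kb: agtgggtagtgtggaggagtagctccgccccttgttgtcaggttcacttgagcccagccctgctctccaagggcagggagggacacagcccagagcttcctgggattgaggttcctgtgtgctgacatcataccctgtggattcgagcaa
It scored 46 and 45 with 58% GC and held none of the capitalised motifs.

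Ngfr encodes p75, a neurotrophin receptor of the TNF receptor family that marks migrating crest cells. The gene lies on the minus strand of chromosome 11, from 95568818 to 95587735, in a territory of 76.2 kb. Replicate 1 had 20 peaks there and replicate 2 had 23, and 17 of the replicate 1 peaks (85%) were shared. Distal peaks numbered 23.6 and 26.2 per 100 kb, 24.9 ± 1.86 (SD, n = 2).

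A trio of strong peaks stood at the start of Ngfr. The peak at the start site scored 120 in replicate 1 and 123 in replicate 2. Peaks in intron 1 at 1.36 kb and 2.38 kb scored 112 and 115 in replicate 1 and 128 and 123 in replicate 2. These 3 peaks were each within the top 6.61% of replicate 1 and the top 5.22% of replicate 2. Further along, peaks centred in intron 3 stood at 9.76 kb, with 92 and 110, and at 11.7 kb, with 84 and 102. The peak at 9.76 kb also overlapped an exon of Ngfr. Upstream, the peak at −8.24 kb scored 88 and 101. A separate group of 4 shared peaks between −34.9 and −27.2 kb scored 70 and 75 at best. The gene body held 47.6 shared peaks per 100 kb, and the median of all genes was 7.13.

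The promoter of Ngfr, chr11:95587699-95587948 of GRCm38.p6, and the peak at 1.36 kb, chr11:95586296-95586445 of mm10, are printed on the minus strand. They are the bases just upstream of the RefSeq start site and the best-ranked distal peak of Ngfr. The GENCODE start site at 95587735, from which distances are counted, lies inside the printed promoter.
Ngfr promoter: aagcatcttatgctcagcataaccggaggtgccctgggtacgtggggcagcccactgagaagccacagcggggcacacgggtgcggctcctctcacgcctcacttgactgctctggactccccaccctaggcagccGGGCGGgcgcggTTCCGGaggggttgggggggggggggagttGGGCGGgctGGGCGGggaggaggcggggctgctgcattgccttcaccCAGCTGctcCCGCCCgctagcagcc
Ngfr peak at 1.36 kb: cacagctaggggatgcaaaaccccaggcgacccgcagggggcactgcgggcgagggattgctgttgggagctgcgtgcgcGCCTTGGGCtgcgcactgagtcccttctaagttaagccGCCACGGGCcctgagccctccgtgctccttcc
The promoter held 4 matches to the SP letters, 1 to the ETS letters CCGGAA and 1 to CAGCTG. The ETS letters occurred in 12.0% of promoters of the table and CAGCTG in 13%. The CAGCTG match, at base 226, and the SP match at base 235 lie downstream of the GENCODE start site. The intronic peak held 2 matches to the AP-2 letters, GCC and GGC separated by 3 bases, beginning at bases 81 and 119. AP-2 factors are regulators of the crest, and 6.56% of all shared distal peaks held at least 1 match. Letters of AP-2 and SP motifs can overlap in GC-rich sequence, and this peak had 67.3% GC with 11 CpG dinucleotides.

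Ntrk2 encodes TrkB, the receptor for BDNF and NT-4, which is used in sensory neurons and widely in the central nervous system. The gene lies on the plus strand of chromosome 13, from 58806569 to 59133970, with a territory of 487.18 kb. Replicate 1 had 48 peaks there and replicate 2 had 57, and 36 of the replicate 1 peaks (75%) were shared. The distal density was 9.24 and 11.1 per 100 kb, 10.2 ± 1.31 (SD, n = 2).

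Of the 9 annotated start sites of Ntrk2, 7 had a peak within 500 bp in both replicates, and these 7 lay within 2122 bp of one another. The 5'-most, of transcript Ntrk2-207, lay in a peak that scored 121 in replicate 1 and 134 in replicate 2, the highest replicate 2 score in the territories of the 7 genes. The start of Ntrk2-201, 1128 bp downstream, had a peak that scored 96 and 104. The 2 start sites without a peak belonged to transcripts annotated as a retained intron and as subject to nonsense-mediated decay. Along the gene, 25 of the 33 shared distal peaks lay inside Ntrk2 but in no exon of its principal transcript, and none lay within 10 kb of the 5'-most start site. The strongest stood far downstream. The peak at 205 kb in intron 13 scored 113 and 122, and the one at 234.5 kb in intron 14 scored 105 and 109. Those at 267 kb and 286 kb in intron 16 scored 106 and 104 in replicate 1 and 116 and 115 in replicate 2. A run of 6 shared peaks occupied the stretch from 285 to 294 kb. The best-scoring peak without a partner in the other replicate also lay there, at 284982 bp, with a score of 92 in replicate 2. It overlapped a replicate 1 hotspot.

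The promoter of Ntrk2, chr13:58806319-58806568 of GRCm38.p6, and the peak at 205 kb, chr13:59011616-59011765 of mm10, are printed on the plus strand, as the strongest promoter and distal sites of the gene.
Ntrk2 promoter: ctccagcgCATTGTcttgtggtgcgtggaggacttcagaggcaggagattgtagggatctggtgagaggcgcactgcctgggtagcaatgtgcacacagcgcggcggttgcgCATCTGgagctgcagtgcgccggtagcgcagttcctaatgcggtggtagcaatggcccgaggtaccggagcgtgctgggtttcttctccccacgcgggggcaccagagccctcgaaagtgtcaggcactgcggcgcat
Ntrk2 peak at 205 kb: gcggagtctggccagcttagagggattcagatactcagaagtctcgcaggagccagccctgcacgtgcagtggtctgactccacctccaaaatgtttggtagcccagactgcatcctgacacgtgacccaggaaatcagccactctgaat
The promoter held 1 match to the SOX letters ACAATG and 1 to CAGATG, both on the opposite strand. These letters occurred in 10.7% and 14.4% of promoters of the table. The distal peak, with 55.3% GC, held none of the capitalised motifs.

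Ntrk3 encodes TrkC, the receptor for NT-3, known for its part in proprioceptive neurons. The gene lies on the minus strand of chromosome 7, from 78175959 to 78738012. Its territory of 1276.62 kb was the longest of the 7. Replicate 1 had 64 peaks there and replicate 2 had 93, a ratio of 1.45, which was the highest of the 7 genes and compares with 1.13 for the full lists. Of the replicate 1 peaks 50 (78.1%) were shared, and of the replicate 2 peaks 53.8%. The distal density was 4.39 and 6.42 per 100 kb, 5.4 ± 1.44 (SD, n = 2).

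The 5'-most start site of Ntrk3 belongs to processed transcripts without a coding sequence. The nearest peak to it was 7404 bp away in replicate 1 and 5824 bp away in replicate 2. The start of the principal coding transcript, Ntrk3-201, lies 159604 bp downstream and fell in a peak that scored 92 and 90. It belonged to a stretch of 2314 bp with 6 shared peaks that was a hotspot at the ceiling in both replicates, the widest such stretch among the 7 genes. The best peak there, at 372 bp from the nearest start site in intron 1, scored 98 and 111. Of the 19 annotated start sites, 9 had a peak within 500 bp in both replicates and 1 in replicate 2 alone.

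Distal peaks of Ntrk3 were spread over the gene and its 3' side, with 24 of 42 in the gene and 18 intergenic downstream. The best-ranked, at 926 kb and beyond the 3' end, scored 85 and 105. Those at 169 kb in intron 1 and 470 kb in intron 12 scored 83 and 88 in replicate 1 and 100 and 90 in replicate 2. A peak in exon 17, at 547 kb, scored 81 and 83. The farthest shared peak, at 1243 kb, scored 32 and 38. The stretch from 304 to 443.5 kb, within the gene, had no shared peak. The intergenic peak, chr7:77812176-77812325 of mm10, is printed on the minus strand as the strongest distal site.
Ntrk3 peak at 926 kb: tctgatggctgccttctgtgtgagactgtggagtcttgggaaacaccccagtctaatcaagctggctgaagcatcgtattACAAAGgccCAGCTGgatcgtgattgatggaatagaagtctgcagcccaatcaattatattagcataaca
With 46% GC it had the lowest GC content of the 7 distal peaks printed, and it held the SOX letters ACAAAG at base 81 and the E-box CAGCTG at base 90.

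Set against all protein-coding genes, 6 of the 7 had a shared distal density above the median of 4.12 per 100 kb. Ntrk3 was below it, though not in every setting described at the end. The median over the 7 was 8.02, and the middle 50% of all genes spanned 0 to 8.32. Over the summed territories of the 7 genes the density was 6.37 per 100 kb, beside 4.90 for the genome. Ngfr stood at percentile 96.2, Foxd3 at 94.5, Erbb3 at 89.6, Phox2a at 73.7, Ret at 69.3, Ntrk2 at 67.2 and Ntrk3 at 44.3. Among genes of like territory length the percentiles were 97.2, 97.7, 87.8, 71.2, 62.2, 76.0 and 41.7 in the same order. Densities in Ngfr exceeded those in Foxd3 in each replicate, and those of Ntrk3 were below the other 6 in each. The ranges over replicates of Phox2a, Ret and Ntrk2 overlapped, so their order was not resolved. With peaks of the better-scoring 50% of each list alone, the median fell to 4.31, beside 1.19 for all genes.

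**Figure D2:**
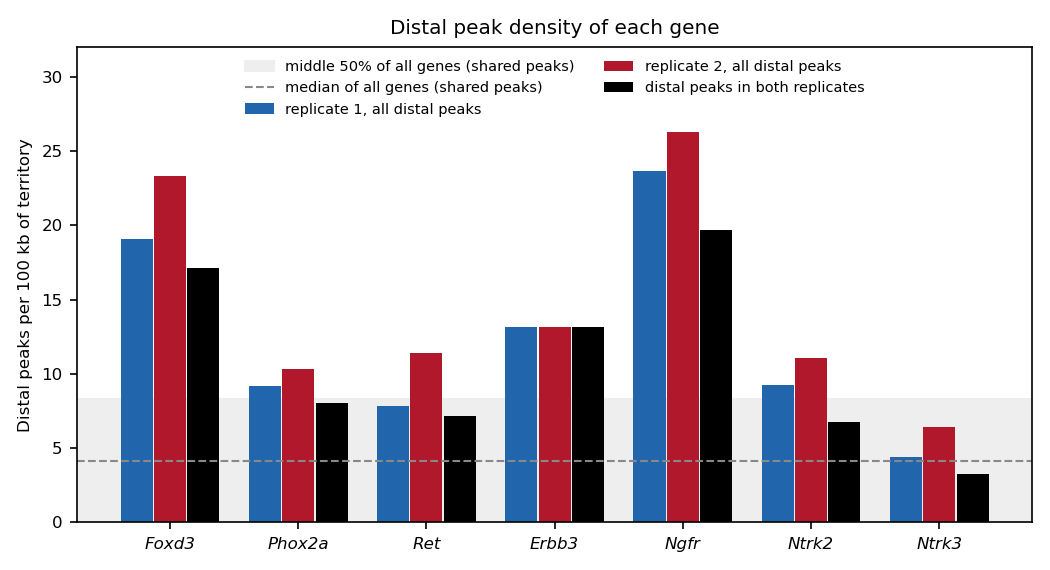
Bars give distal peaks per 100 kb of territory for each gene, in replicate 1, in replicate 2 and for peaks found in both, starting at 0. The dashed line is the median over all genes for peaks found in both replicates, 4.12, and the grey band their middle 50%; the black bar of Ntrk3 is the only one below the line.

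Peaks inside the genes were counted separately. The gene body held 172 shared peaks per 100 kb at Foxd3, 47.6 at Ngfr and 45.3 at Phox2a. It held 22.6 at Erbb3, 13.1 at Ret, 8.25 at Ntrk2 and 5.69 at Ntrk3. The median over the 7 was 22.6, beside 7.13 for all genes. Body length differed from 2.32 kb at Foxd3 to 562 kb at Ntrk3, and a short body consists largely of its promoter. Without the 1 kb next to every start site, the densities were 227 at Foxd3, 70.8 at Phox2a, 39.1 at Ngfr, 23.7 at Erbb3, 9.01 at Ret, 7.81 at Ntrk2 and 4.45 at Ntrk3, and the median of all genes was 1.56. The value at Foxd3 came from 3 peaks in 1.32 kb and that at Phox2a from 1 peak in 1.41 kb.

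The replicates were compared over the 7 territories. Of 211 replicate 1 peaks there, 171 (81.0%, 95% Wilson interval 75.2 to 85.8%) were shared, beside 79.5% of the full list. Of 265 replicate 2 peaks, 167 (63.0%) were shared, beside 70.3%. The interval covers counting only, and neighbouring peaks are not independent. Shared peaks had a median score of 50 in replicate 1 and 59 in replicate 2, and the score was higher in replicate 2 for 144 of the 171 (84.2%), much as for 83.8% of all shared peaks. At Erbb3, 3 of the 6 shared peaks were higher in each replicate. Median scores over the full lists were 45 and 50, so a higher score in replicate 2 need not be a better rank. The start site peak of Ngfr, with 120 and 123, stood in the top 5.04% of replicate 1 and the top 5.22% of replicate 2. Peaks without a partner had median scores of 32 and 33.

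**Figure D3:**
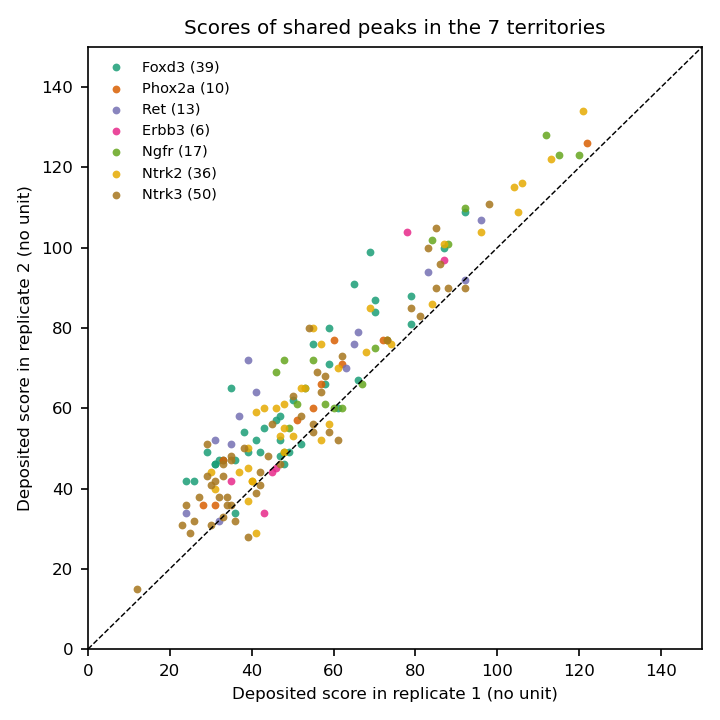
Each point is a peak found in both replicates within the territory of 1 of the 7 genes, with its deposited score in replicate 1 on the horizontal axis and in replicate 2 on the vertical axis, neither of which has a unit. Colour gives the gene, the number of its peaks is in the legend, and the dashed line marks equal scores; 144 of the 171 points lie above it.

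The 147 shared distal peaks of the 7 genes had a median GC content of 53.3%, beside 51.3% for all shared distal peaks. None consisted mostly of repeats, beside 4.30% of all. The E-boxes CAGCTG and CAGATG were the commonest of the 16 motifs searched. CAGCTG stood in 33 of the 147 (22.4%), beside 18.5% of all, and CAGATG in 25 (17.0%), beside 18.7%, with 8 of those 25 at Ngfr. The E-box CAGGTG, bound by Zeb and Snai repressors, stood in 17 (11.6%), beside 10.5%.

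SOX letters are of interest because Sox10 is a crest regulator. ACAAAG stood in 18 peaks (12.2%), beside 14.5%, with 6 at Ntrk3, 5 at Foxd3, 3 each at Ret and Ntrk2, 1 at Ngfr and none at Phox2a or Erbb3. The other SOX form, ACAATG, stood in 10 (6.80%), beside 8.24%. AP-2 letters stood in 13 (8.84%), beside 6.56%. The homeodomain core TAATTA stood in 1 peak, at Ntrk3 (0.680%, beside 3.35%), and the TEAD letters GGAATG in 10 (6.80%), beside 11.0%. Shares over 147 peaks of 7 genes move by small counts, and no difference from all distal peaks was tested.

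Other genes of the same pathways also had open promoters. Of 10 ligands of the neurotrophin, GDNF, neuregulin and endothelin families, 9 had a promoter peak in both replicates, and Pspn, a GDNF family ligand, had one in neither. All 11 other receptors and co-receptors had one, as did all 18 transcription factors of the crest and of peripheral neurons. Of 12 differentiation genes 9 had one, and those without included Dbh, which converts dopamine to noradrenaline, and Scn10a, a sodium channel of nociceptors. These counts stand beside the 70.3% of all genes.

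The median distal density was 7.83 per 100 kb for the ligands, 6.36 for the receptors, 8.97 for the transcription factors and 6.33 for the differentiation genes. The highest ligand values were 13.2 at Ntf5, from 1 peak, and 9.82 at Edn3. Among receptors they were 11.1 at Sort1 and 10.7 at Sorcs2, both of which bind proneurotrophins. Neurog1 and Gata2 led the transcription factors with 27.2 and 23.2, above every one of the 7 genes. Prph, a filament of peripheral neurons, and Mbp, a myelin protein, led the differentiation genes with 22.4 and 15.4.

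**Figure D4:**
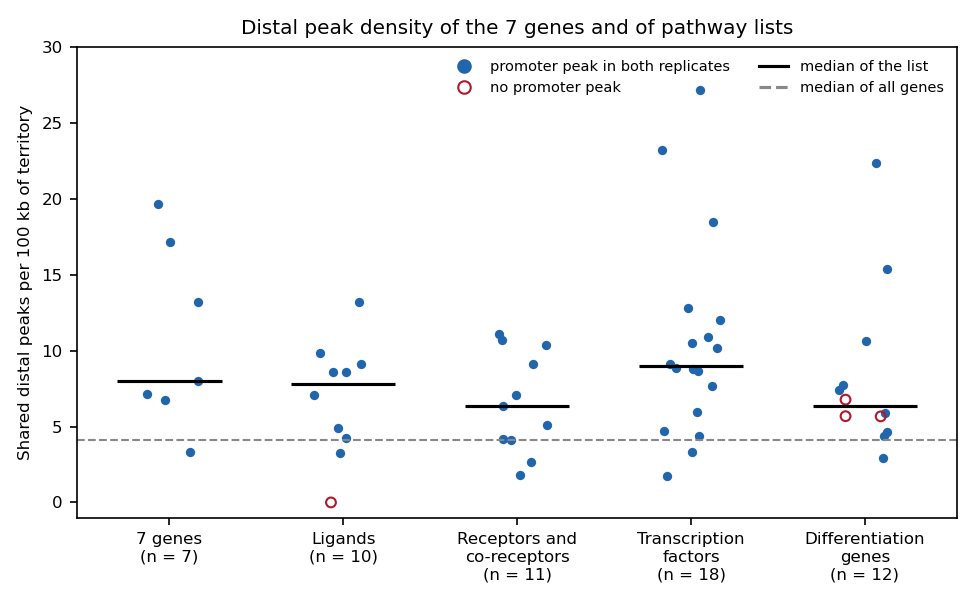
Points give the shared distal peaks per 100 kb of territory for each of the 7 genes and each gene of the 4 pathway lists, spread sideways only for legibility. Filled points had a promoter peak in both replicates and open points in neither; black lines are list medians, from 6.33 to 8.97, and the dashed line is the median of all genes, 4.12.

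Markers were read to check the tissue. All 6 neural crest markers, Foxd3 among them, and all 7 sensory neuron markers had a promoter peak in both replicates. So did 5 of 6 autonomic markers, Phox2a among them, but Dbh did not. Of all protein-coding genes, 70.3% had such a peak. Among other cell types, Tnnt2 of the heart and Hnf4a of the liver had one. Myh6, Alb and the erythroid gene Alas2 had none in either replicate, and Gata1 had one in replicate 2 alone.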

How the data were processed

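DNase-seq lists of 2 replicates of mouse embryos were analysed. Per the file headers and accompanying text, the authors made each list from the filtered mm10 alignments of 1 replicate, without pooling. Which aligner and caller were used, with what versions and filters, was not given in the sources used here. The deposited peak score is a whole number of unstated construction. The deposited hotspot value is the −log10 of a q value and stops at 100.

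The annotation was GENCODE M21, with the first entry kept for 27 symbols listed more than once, and the genome was GRCm38, the build of the files. Promoter windows of 500 bp were set around every annotated start site, with the call requiring both replicates. Shared peaks are replicate 1 peaks that overlap a replicate 2 peak. Gene measures used peak midpoints. Body densities used the whole gene, and distal densities the territory. Genes of like length are those of the same decile. Intervals are 95% Wilson intervals. Peaks named for each gene are the one nearest to the 5'-most start site, the 3 shared distal peaks of best mean rank, the best in the body, the farthest, and the widest stretch under hotspots of both replicates; other peaks were named after their values were seen. Printed distal peaks are the best-ranked that overlap no exon. Promoter sequences were in the RefSeq table (GRCm38.p6) for 4 of the 7 genes, Foxd3, Phox2a, Ngfr and Ntrk2. Motifs were consensus letters searched on both strands. The 7 genes, lists and motifs were chosen with earlier results of these data known. Some genes of the lists are not reported here. Counting steps were tested on simulated data. Python 3.11.15, pandas 2.3.3, numpy 2.4.6 and scipy 1.17.1 were used.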

Additional observations from a re-analysis of the deposited data

How the results depend on the processing

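The count of 7 genes with a promoter peak was 7 with windows of 250 and 2500 bp, with the better-scoring 50% of each list and with either replicate alone, and 6 at the 5'-most start site alone. Most protein-coding genes also had such a peak, 65.2% at the 5'-most start site alone and at least 66.9% in each other setting. No test compared the 7 genes with these shares. The median distal density of 8.02 per 100 kb was 4.31 with the better-scoring 50% of peaks and between 9.24 and 11.4 with either replicate alone, where sharing is not required. It moved by less than the spread between replicates under the other settings, among them a territory drawn from coding transcripts alone, which was chosen after seeing the data. The median body density of 22.6 was 8.70 with the better-scoring 50% and between 22.6 and 27.1 with either replicate alone. The 81.0% of replicate 1 peaks shared stood above the 79.5% of the full list. It became 73.9% with an overlap of at least 75 bp, 63.0% from replicate 2 and 86.0% among the better-scoring 50%, each below the full list's 74.7%, 70.3% and 89.9%. It was 86.3%, beside 84.0%, when a hotspot of the other replicate sufficed. In each setting both median densities over the 7 genes were above those of all genes. The distal density of Ntrk3 alone was above the median of all genes with replicate 2 alone, 6.42 beside 6.26. It was also above with territories capped at 250 kb, 4.40 beside 4.17, and with distal peaks over 2500 bp from every start site, 3.13 beside 3.10. Under the remaining settings Ntrk3 was below that median. No paired analysis was possible because there is 1 group. Depth is unknown, so weak peaks found in 1 replicate alone cannot be told from peaks missed in the other.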
